A study of Danio rerio with 25 samples.

Results

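Heat shock proteins and DnaJ proteins are the chaperones that fold, hold and refold other proteins. Their genes were followed here in RNA and in chromatin accessibility of the zebrafish epicardium, the cell sheet that covers the heart. The members were all genes of the RNA count table whose name begins with hsp or dnaj, in lower case, and whose counts sum to at least 10 over the 11 RNA libraries. This gave 82 of 31275 genes, of which 79 passed the filter on low counts used for testing, and dnajc22, dnajc5b and dnajb9b.1 did not. In the peak table, 158 of 61954 accessible regions were annotated to 74 of the members, 64 of them at a promoter, and all 158 were tested.

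Chaperone genes fall into those that are switched on by stress and those that are always transcribed. In the heat shock response, unfolded protein releases the transcription factor Hsf1, which drives the inducible HSP70, HSP90 alpha, small heat shock and Dnajb1 genes. HSP70 proteins bind exposed stretches of a client in a cycle driven by ATP, DnaJ proteins (HSP40 proteins) bring them clients and start the cycle, HSP90 proteins act later on nearly folded clients, and small heat shock proteins hold clients without ATP. The endoplasmic reticulum and the mitochondrion each have a set of their own. By these roles the members were divided into 12 stress-inducible genes, 9 constitutive cytosolic genes, 9 cytosolic DnaJ genes of the A and B types, 15 genes of the endoplasmic reticulum, 9 mitochondrial genes, 6 other small heat shock genes and 19 other DnaJ genes of the C type. Of the remaining 3, hspg2, which encodes the basement membrane protein perlecan, and hspbap1 match the name pattern without being chaperones, and dnajb9b.1 was left without a class.

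Polyadenylated RNA was measured in 4 groups and accessible DNA (by ATAC-seq, where Tn5 transposase inserts adapters into open chromatin) in 6. Untreated larvae at 5 days post fertilization carrying tcf21:H2B-Dendra2 were sorted by fluorescence (FACS) into epicardium and non-epicardium of the heart, with 3 RNA libraries and 2 ATAC libraries of each. A second larval ATAC set was sorted in the same way with tbx18:myr-Citrine, with 2 libraries each of epicardium and non-epicardium. Adult epicardium carried tcf21:BirA-mCherry and was taken 3 days after cryoinjury of the heart or 3 days after sham surgery, with the age of the adults not given in the labels. The adult RNA came from a nuclear pulldown, with 3 libraries after cryoinjury and 2 after sham surgery, and the adult ATAC cells were sorted by FACS, with 4 and 2 libraries. Every adult library, sham included, followed surgery, while the larvae were untreated. Stage, surgery, reporter construct and, for RNA, the way the material was purified therefore differ together between adult and larval libraries. They cannot be told apart. The labels do not say whether replicates came from separate pools of animals, so p-values measure only the spread between these libraries. All reporters are driven by promoters of genes that mark the epicardium.

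RNA totals ranged from 4635226 to 8371594 counts per library and ATAC totals from 755606 to 6248597. The lowest 3 ATAC totals were those of tcf21 larval epicardium replicates 2 (755606) and 1 (941610) and of tcf21 larval non-epicardium replicate 2 (913324). The 5 epicardial markers tcf21, tbx18, wt1a, wt1b and aldh1a2 held 0.0953% to 0.14% of all counts in larval epicardium, 0.0573% to 0.061% after cryoinjury, 0.025% to 0.0499% after sham surgery and 0.000919% to 0.00143% in larval non-epicardium. The larval libraries of a group bear the letters A, B and C, which only name them, and the epicardium library B had an unusual composition, with a scaling factor of 1.88 against 0.674 to 1.103 in the other RNA libraries. Levels are given as CPM (counts scaled by TMM to a library total of 1000000) and, where genes are compared with each other, as CPM per kilobase of the deposited gene length. A gene or peak is referred to as called where the adjusted p of edgeR's quasi-likelihood test was under 0.05.

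The sharpest contrast among the chaperones was between larval sorted cells and adult nuclei, and it ran through the stress-inducible class. Of the HSP70 family members that are transcribed under stress, hsp70.1, hsp70.2 and hsp70.3 stood high in larval epicardium, with their partner dnajb1b. In adult epicardium these genes were at a few CPM or 0. Within the same class, the small heat shock gene hspb11 and the HSP90 alpha gene hsp90aa1.1 ran the other way. In cryoinjured adult against larval epicardium, 9 of the 12 inducible genes were called, 3 higher and 6 lower, and in sham adult against larval epicardium 8 were called, 2 higher and 6 lower. Of all genes tested, 38.1% were called in the cryoinjury comparison and 37.2% in the sham comparison, so a call in either is common. The 2 comparisons share the larval libraries, and their values are given side by side for that reason only. In bulk libraries such as these, fewer cells of a type and less RNA per cell cannot be told apart.

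The gene with the largest drop in the cryoinjury comparison was hsp70.3, an inducible HSP70. Its level was 574, 947 and 1398 CPM in the 3 larval epicardium libraries, 1.46, 0.204 and 3.07 CPM in the 3 cryoinjury libraries and 0 and 3.81 CPM in the 2 sham libraries. Every adult library lay far under every larval one. The gene's fitted log2 fold change was -9.24 (SE 1.05, adjusted p = 3.96e-06) after cryoinjury and -8.95 (SE 1.26, adjusted p = 3.93e-05) after sham surgery.

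Its neighbours on chromosome 3, hsp70.1 and hsp70.2, are close copies of it, so reads may have been shared out among the 3 genes and the single values are less certain than the pattern of the group. The level of hsp70.1 was 188, 330.0 and 449 CPM in larval epicardium, 0.731, 0.816 and 0.767 CPM after cryoinjury and 0 and 2.96 CPM after sham surgery. For hsp70.2 the larval levels were 419, 527 and 829 CPM, the cryoinjury levels 3.11, 1.02 and 4.99 CPM and the sham levels 0.239 and 5.08 CPM. Both genes thus had adult levels far under every larval library, with log2 fold changes of -8.67 (SE 0.92, adjusted p = 2.02e-06) and -7.59 (SE 0.88, adjusted p = 4.75e-06) after cryoinjury. Against sham the values were -7.71 (SE 1.06, adjusted p = 3.16e-05) for hsp70.1 and -7.76 (SE 1.08, adjusted p = 3.5e-05) for hsp70.2.

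The DnaJ partner of inducible HSP70, dnajb1b, moved with them. It was at 457, 523 and 1217 CPM in larval epicardium, at 2.92, 1.02 and 4.22 CPM after cryoinjury and at 0 and 0.212 CPM after sham surgery, where the libraries held 0 counts and 1 count. On the log2 scale the fold change after cryoinjury was -8.06 (SE 0.77, adjusted p = 7.33e-07). Since both sham libraries lay under 3 counts, the sham level is given only as at least 1080-fold lower than the larval level (adjusted p = 8.04e-07). Its paralogue dnajb1a was low throughout, with means of 13.99 ± 6.70 CPM in larval epicardium and 19.7 ± 7.60 CPM in cryoinjured hearts (SD, n = 3 each) and of 23.4 ± 18.4 CPM in sham hearts (SD, n = 2), and was called in no RNA comparison.

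Smaller differences in the same direction were found for hsp70l and for hsp90aa1.2, an inducible HSP90 alpha. The hsp70l level was 29.6, 134 and 123 CPM in larval epicardium, 4.57, 7.75 and 11.7 CPM after cryoinjury and 9.56 and 23.1 CPM after sham surgery. For hsp90aa1.2 the larval levels were 283, 931 and 1082 CPM, those after cryoinjury 155, 90.4 and 245 CPM and those after sham surgery 107 and 194 CPM. Larval and adult libraries did not overlap for either gene, although the highest adult library came close to the lowest larval one. The log2 fold changes were -3.57 (SE 0.68, adjusted p = 0.000647) and -2.54 (SE 0.76, adjusted p = 0.0178) for hsp70l, after cryoinjury and sham surgery, and -2.23 (SE 0.61, adjusted p = 0.00831) and -2.34 (SE 0.72, adjusted p = 0.0206) for hsp90aa1.2. The sham calls of both genes were lost without sham replicate 4 (adjusted p = 0.111 for hsp70l and 0.112 for hsp90aa1.2) and without larval epicardium replicate B (0.0509 and 0.0502), and that of hsp90aa1.2 also without replicate C (0.0519).

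**Figure D1:**
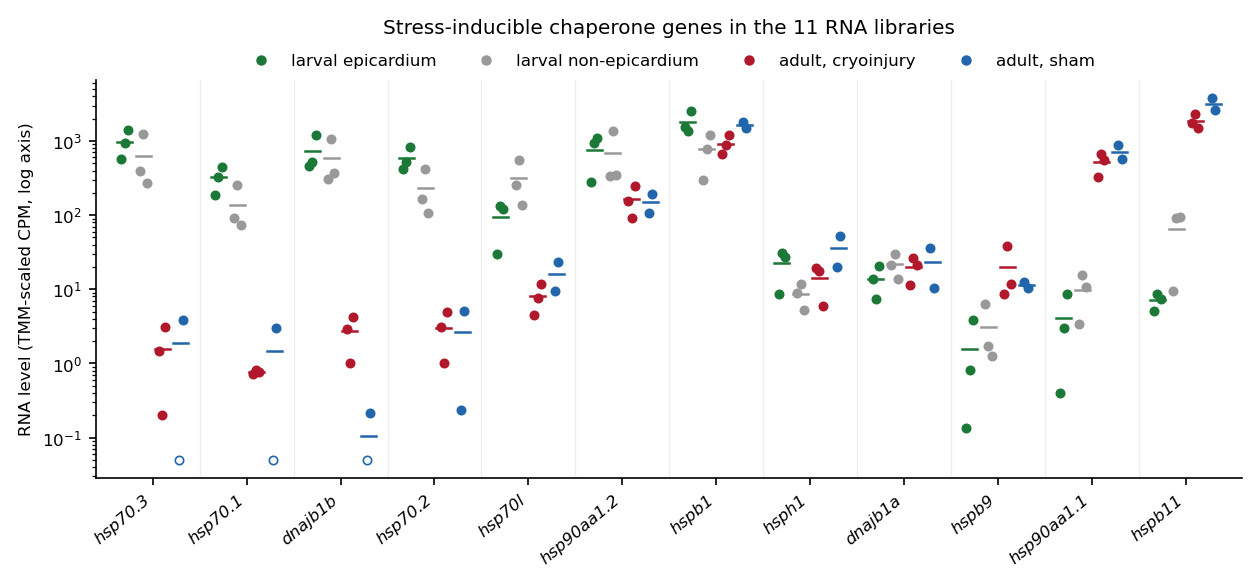
RNA level in TMM-scaled CPM (log axis) of the 12 stress-inducible genes in each of the 11 libraries, where points are libraries, bars are group means and open points stand for 0 counts. The 4 genes on the left lie at 188 to 1398 CPM in larval epicardium and at or under 5.08 CPM in every adult library, while hsp90aa1.1 and hspb11 on the right lie higher in every adult library than in any larval one.

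Of the genes of this class that were higher in adults, hspb11 had the largest difference. Its level was 5.14, 8.75 and 7.50 CPM in larval epicardium, 1753, 2341 and 1520.0 CPM after cryoinjury and 3754 and 2643 CPM after sham surgery. The larval non-epicardium lay between them, with 9.57, 92.7 and 95.1 CPM. The fitted log2 fold change against larval epicardium was 8.03 (SE 0.78, adjusted p = 7.49e-07) after cryoinjury and 8.80 (SE 0.81, adjusted p = 4.44e-07) after sham surgery. Per kilobase hspb11 was the most abundant member in both adult groups, at 1796 CPM per kilobase after cryoinjury and 3070 after sham surgery against 6.84 in larval epicardium.

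The pair of HSP90 alpha genes ran in opposite directions. While hsp90aa1.2 was lower in adults, hsp90aa1.1, which in zebrafish is known for folding myosin in skeletal muscle, was at 0.406, 2.99 and 8.77 CPM in larval epicardium, 324, 663 and 560 CPM after cryoinjury and 877 and 564 CPM after sham surgery. The lowest adult library was above the highest larval library, including those of the non-epicardium at 3.43, 15.5 and 10.6 CPM. The log2 fold change was 6.98 (SE 0.86, adjusted p = 8.33e-06) after cryoinjury and 7.46 (SE 0.89, adjusted p = 6.11e-06) after sham surgery.

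Of the last 3 genes of the class, 1 was called. The small heat shock gene hspb9 was at 0.135, 0.824 and 3.81 CPM in larval epicardium, 8.59, 39.0 and 11.9 CPM after cryoinjury and 12.4 and 10.4 CPM after sham surgery. It was called higher after cryoinjury (log2 fold change 3.62, SE 1.13, adjusted p = 0.0159) and not after sham surgery (2.83, SE 1.16, adjusted p = 0.0593), and the difference between these was itself not called (0.80, SE 1.16, adjusted p = 0.803). The cryoinjury call was lost without cryoinjury replicate 8 (adjusted p = 0.0858), larval epicardium replicate A (0.0552) or B (0.0691). The gene hspb1, which encodes Hsp27, was high everywhere, with 1553, 1373 and 2529 CPM in larval epicardium, 672, 876 and 1194 CPM after cryoinjury and 1805 and 1478 CPM after sham surgery. Neither hspb1 (log2 fold change -0.99, adjusted p = 0.113, after cryoinjury and -0.15, adjusted p = 0.851, after sham surgery) nor hsph1, an HSP110 exchange factor of HSP70 (-0.65, adjusted p = 0.514, and 0.68, adjusted p = 0.524), was called.

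Other genes moved along with these. Summed over the 6 inducible genes lower in adults, a set picked after their values had been seen and given as a description, the share of all counts was 0.214%, 0.627% and 0.479% in larval epicardium, 0.144%, 0.383% and 0.113% in larval non-epicardium, 0.0179%, 0.0107% and 0.0286% after cryoinjury and 0.00787% and 0.0231% after sham surgery. The whole class of 12 inducible genes did not separate larvae from adults. Its share was 0.388% to 0.891% in larval epicardium and 0.176% to 0.456% in larval non-epicardium. In adults it was 0.316% to 0.43% after cryoinjury and 0.446% to 0.502% after sham surgery. The immediate-early genes, transcription factor genes of the Fos, Jun and Egr kind that are switched on within minutes and rise when tissue is dissociated, held 2.65% to 3.12% of counts in larval epicardium, 0.698% to 0.995% in larval non-epicardium, 0.0399% to 0.0809% after cryoinjury and 0.0239% to 0.0601% after sham surgery (14 of 17 listed genes were in the table). Of these 14, 13 were called lower in each adult comparison, led by fosab (log2 fold change -9.90 after cryoinjury and -10.56 after sham surgery). A list of 18 cardiomyocyte genes went the opposite way, with 0.0979% to 0.221% in larval epicardium, 0.591% to 1.64% in larval non-epicardium, 4.34% to 5.06% after cryoinjury and 5.65% to 7.30% after sham surgery. The part of dissociation or of cardiomyocyte RNA in the chaperone differences was not tested.

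**Figure D2:**
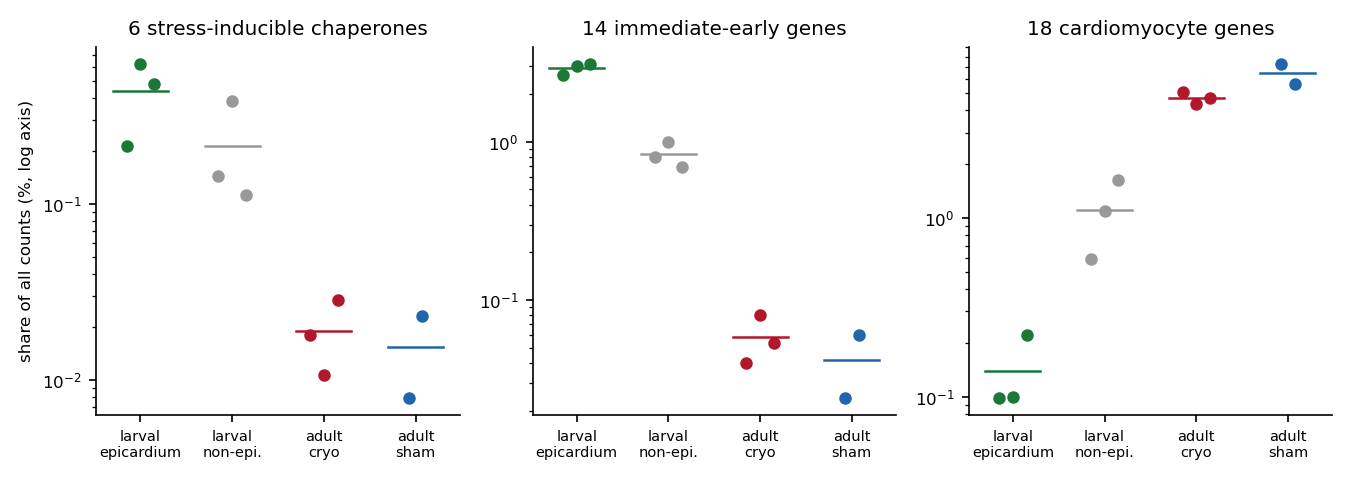
Share of all counts (percent, log axes) held in each RNA library by the 6 inducible chaperones lower in adults, by 14 immediate-early genes and by 18 cardiomyocyte genes, where points are libraries and bars are group means. The first 2 sets lie lower in all 5 adult libraries than in all 6 larval ones, and the cardiomyocyte genes lie higher.

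Taken over all members, 34 of 79 were called in cryoinjured adult against larval epicardium, 21 higher and 13 lower, and 36 in sham adult against larval epicardium, 21 higher and 15 lower. The shares over all genes were 12.1% (higher) and 26.0% (lower) in the first comparison, and 11.5% and 25.6% in the second. For the members the median log2 fold change was 0.12 and 0.55, against -0.59 and -0.92 for all genes. These medians move with the scaling: that of all genes lay between -0.96 and -0.13 in the cryoinjury comparison and between -1.53 and -0.42 in the sham comparison under the scalings tried. Under scaling by the library total, the sham split of the members was 16 higher and 19 lower. Without sham replicate 4 the sham count was 22, 11 higher and 11 lower.

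The constitutive cytosolic chaperones had smaller fold changes. Each adult comparison called 3 of 9 genes higher and 1 lower, and their median log2 fold change was 1.04 after cryoinjury and 0.87 after sham surgery. The calls were 44.4% of the class in each comparison, near the 38.1% and 37.2% of all genes. The gene hspa8 encodes the HSP70 that is present without stress (Hsc70). It was at 1860.0, 1098 and 3357 CPM in larval epicardium, 1799, 1985 and 1571 CPM after cryoinjury and 5008 and 2709 CPM after sham surgery, so the groups overlapped, and it was not called (log2 fold change -0.24, SE 0.46, adjusted p = 0.721, and 0.87, SE 0.50, adjusted p = 0.173). The constitutive HSP90 beta gene hsp90ab1 was at 1300.0, 831 and 2164 CPM in larval epicardium, 4949, 3276 and 3941 CPM after cryoinjury and 4927 and 3250.0 CPM after sham surgery. Every adult library was above every larval epicardium library, with log2 fold changes of 1.502 (SE 0.44, adjusted p = 0.0119) and 1.51 (SE 0.48, adjusted p = 0.0226), the second of which was lost without sham replicate 4 (adjusted p = 0.11). The other called genes of the class were hspa4a, an HSP110 (1.35 and 2.16), hspa4b (1.93 after cryoinjury), hspa12b (1.99 after sham surgery), hspa4l (at least 5.87-fold lower after cryoinjury) and hspbp1, a nucleotide exchange factor of HSP70 (-2.65 after sham surgery). The calls of hspa4b after cryoinjury and of hspa4a after sham surgery held in each fit that left out a library. That of hspa4a after cryoinjury was lost without cryoinjury replicate 8 (adjusted p = 0.065) or 9 (0.0682) or larval epicardium replicate A (0.095). The hspa4l call was lost without any one of the cryoinjury replicates 7 and 9 and the larval epicardium replicates (0.0739 to 0.13). Without sham replicate 4 those of hspa12b (0.0873) and hspbp1 (0.148) were lost, without sham replicate 12 that of hspa12b (0.0671), without larval epicardium replicate B both (0.0509 and 0.0607) and without replicate C that of hspbp1 (0.0562).

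Chaperones set side by side per kilobase show how the ranking changed. In larval epicardium the highest means were those of hspb1 (1093 CPM per kilobase), hspa8 (819), hsp70.3 (413), hsp90ab1 (405) and dnajb1b (346). In the adult groups the 4 highest were the same 4 genes, hspb11, hsp90ab1, hspa8 and hspb1, with 1796, 1148, 695 and 549 CPM per kilobase after cryoinjury and 3070, 1157, 1502 and 987 after sham surgery. The inducible hsp70.3 had dropped to 0.669 and 0.808 CPM per kilobase in these groups.

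The small heat shock genes outside the inducible class were higher in adults or not called: of 6 genes, 3 were called higher after cryoinjury and 4 after sham surgery, and none lower. Over all genes, 12.1% were called higher after cryoinjury and 11.5% after sham surgery. In mammals hspb2, hspb3, hspb6 and hspb7 are known from heart and skeletal muscle. The largest difference was that of hspb6, at 0.947, 1.54 and 0.890 CPM in larval epicardium, 145, 380.0 and 92.6 CPM after cryoinjury and 2051 and 456 CPM after sham surgery. The sham libraries were higher than the cryoinjury libraries without overlap, and differed widely from each other. Its log2 fold change against larval epicardium was 7.47 (SE 0.94, adjusted p = 1.08e-05) after cryoinjury and 10.08 (SE 1.05, adjusted p = 1.49e-06) after sham surgery, and that of cryoinjury against sham was -2.61 (SE 0.78, adjusted p = 0.0984), which was not called. For hspb2 the values were 5.29 (adjusted p = 0.000248) and 5.91 (adjusted p = 0.000165), and for hspb3 4.01 (adjusted p = 0.00652) and 3.499 (adjusted p = 0.0212), the last of which was lost without larval epicardium replicate C (0.066) or sham replicate 4 (0.0929). The groups overlapped for hspb7, at 328, 180.0 and 386 CPM in larval epicardium, 345, 270.0 and 101 CPM after cryoinjury and 656 and 290.3 CPM after sham surgery, and it was not called (log2 fold change -0.32, adjusted p = 0.698, and 0.67, adjusted p = 0.422). The cardiomyocyte genes moved in the same direction as the called genes of this class, with the shares given above, and their part in it was not tested.

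**Figure D3:**
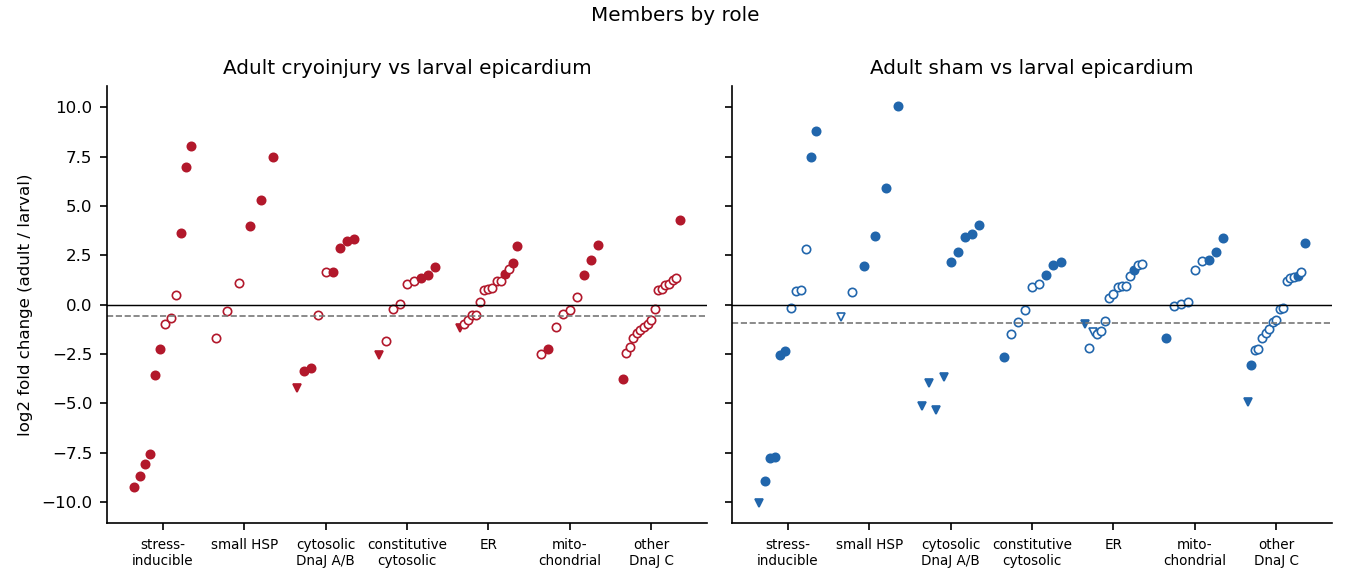
Log2 fold change of each tested member against larval epicardium, for cryoinjured (left) and sham (right) adults, grouped by role. Filled points were called, triangles are bounds against a group with at most 3 counts in every library, and the dashed line is the median of all genes tested (-0.59 and -0.92). The inducible class reaches from -9.24 to 8.03 on the left, a wider range than any other role.

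Cytosolic DnaJ genes were called in both directions. Over all genes, 12.1% were called higher and 26.0% lower after cryoinjury, and 11.5% and 25.6% after sham surgery. Of the 9 genes of the A and B types, 4 were called higher and 3 lower after cryoinjury, and 5 higher and 4 lower after sham surgery. The higher ones were dnajb6b (3.21 and 3.44), dnajb4 (3.322 and 3.58), dnajb2 (2.89 and 4.05), dnaja2 (1.67 and 2.18) and, after sham surgery, dnajb6a (2.66), where dnajb6 proteins are known to hold back protein aggregation. The sham level of dnaja2l was at least 12.9-fold lower (adjusted p = 0.0101, lost without sham replicate 12 at 0.0674). Without sham replicate 4, the sham calls of dnaja2 (adjusted p = 0.0958) and dnajb6a (0.103) were lost. On the lower side, dnajb5 was at 19.6, 22.04 and 30.9 CPM in larval epicardium, 3.47, 3.47 and 0 CPM after cryoinjury and 0 in both sham libraries, which puts the sham level at least 35.8-fold lower (adjusted p = 0.00208). Its call after cryoinjury (-3.38, adjusted p = 0.021) was lost without larval epicardium replicate B (0.0605) or C (0.0735). The gene dnajb13, which in mammals serves the flagella of sperm, had 25, 123 and 125 counts in larval epicardium and 0 in all 5 adult libraries (at least 18.4-fold and 15.7-fold lower). For dnaja1 the sham level was at least 40-fold lower (adjusted p = 0.00892), with the call lost without sham replicate 12 (0.0533), and the cryoinjury call (-3.21, adjusted p = 0.0345) was lost without cryoinjury replicate 7 (0.0626) or 8 (0.086) and without larval epicardium replicate B (0.317), which held 577 counts against 53 and 114 in the other 2.

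In the mitochondrion, the members of the chaperonin pair parted. Hsp60 and Hsp10 form the barrel and the lid of one folding chamber, encoded by hspd1 and hspe1. The level of hspd1 was 36.1, 28.7 and 68.4 CPM in larval epicardium, 273, 403 and 393 CPM after cryoinjury and 479.7 and 453 CPM after sham surgery. That of hspe1 was 198, 114 and 279 CPM in larval epicardium, 136, 174 and 174 CPM after cryoinjury and 207 and 201 CPM after sham surgery. Adult and larval libraries were apart for hspd1 (log2 fold change 3.00, SE 0.48, adjusted p = 0.000131, and 3.39, SE 0.51, adjusted p = 8.54e-05) and overlapped for hspe1 (-0.29, SE 0.42, adjusted p = 0.635, and 0.05, SE 0.47, adjusted p = 0.94). The difference between the 2 genes was not itself tested. Mitochondrial Hsp70, hspa9, was also called higher (1.53 and 2.27), as was dnajc11 (2.26 and 2.68), and dnajc19, which serves protein import, was lower (-2.25 and -1.69). Without sham replicate 4 the sham calls of hspa9 (adjusted p = 0.0546), dnajc11 (0.508) and dnajc19 (0.0733) were lost. That of dnajc19 was also lost without sham replicate 12 (0.18) or larval epicardium replicate A (0.053) or C (0.108), and that of dnajc11 without larval epicardium replicate A (0.0593). The cryoinjury call of dnajc11 was lost without cryoinjury replicate 9 (0.149) or larval epicardium replicate A (0.0847) or B (0.0583).

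Of the 15 genes of the endoplasmic reticulum, 3 were called higher and 1 lower after cryoinjury, and 1 higher and 1 lower after sham surgery. These were 26.7% and 13.3% of the class, where 38.1% and 37.2% of all genes were called. BiP, encoded by hspa5, was at 203, 137 and 259 CPM in larval epicardium, 341, 368 and 382 CPM after cryoinjury and 281 and 301 CPM after sham surgery. All adult libraries were above the larval ones, yet the difference was not called (log2 fold change 0.87, SE 0.48, adjusted p = 0.167, and 0.55, SE 0.53, adjusted p = 0.436). Grp94, the HSP90 of this compartment encoded by hsp90b1, was called after cryoinjury (2.09, SE 0.56, adjusted p = 0.00743) and not after sham surgery (0.92, SE 0.60, adjusted p = 0.233), and cryoinjury against sham gave 1.17 (SE 0.63, adjusted p = 0.327). The other calls were dnajc3b (2.97 after cryoinjury, lost without larval epicardium replicate C at adjusted p = 0.0645), dnajc1 (1.58 and 1.74) and dnajb9a, which had 13, 5 and 13 counts in larval epicardium and 0 in every adult library. Both dnajc1 calls were lost with DESeq2's size factors (adjusted p = 0.0854 and 0.0657), without larval epicardium replicate A (0.0875 and 0.0779) and without replicate C (0.0756 and 0.0655), the first also without cryoinjury replicate 9 (0.0546) and the second without sham replicate 4 (0.286). The sham call of dnajb9a was lost without either sham library (0.136 without replicate 12 and 0.119 without replicate 4) and without larval epicardium replicate A (0.0893) or C (0.0761).

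Among the 17 tested DnaJ genes of the C type outside these compartments, 2 were called after cryoinjury and 4 after sham surgery. These were 11.8% and 23.5%, where 38.1% and 37.2% of all genes were called. The ribosome biogenesis factor dnajc21 was higher (4.27 and 3.15) and dnajc5ab, a cysteine string protein gene, lower (-3.76 and -3.08). After sham surgery dnajc8 was higher (1.47, adjusted p = 0.047) and dnajc24 at least 30.2-fold lower (adjusted p = 4.8e-05). Without sham replicate 4 the sham calls of dnajc21 (0.0687), dnajc5ab (0.0837) and dnajc8 (0.113) were lost. Those of dnajc5ab and dnajc8 were also lost without sham replicate 12 (0.0834 and 0.121) and larval epicardium replicate C (0.0506 and 0.069), and that of dnajc8 without replicate B (0.0833). Of the genes that share only the name, hspg2 was at 58.0, 50.6 and 75.4 CPM in larval epicardium, 591, 346 and 574 CPM after cryoinjury and 199 and 246 CPM after sham surgery, all adult libraries being higher (3.04, adjusted p = 8.46e-05, and 1.86, adjusted p = 0.00779, lost without sham replicate 12 at 0.0609).

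Genes that act with the members were taken from 2 lists. Among heat shock factors and co-chaperones (27 tested of 31), 5 were called higher and 6 lower after cryoinjury and 6 higher and 5 lower after sham surgery. This was 40.7% of the tested genes in each comparison, near the 38.1% and 37.2% of all genes. The called genes included the heat shock factor hsf1 itself, at mean levels of 14.4 CPM in larval epicardium, 48.7 CPM after cryoinjury and 80.8 CPM after sham surgery (log2 fold change 1.75, adjusted p = 0.0192, and 2.48, adjusted p = 0.00631). The largest called values after cryoinjury were those of cryabb, a crystallin small heat shock gene (4.63), and the myosin chaperone unc45b (3.37), and, on the lower side, hsbp1a, a binding protein of heat shock factor (-4.44), and bag3, a co-chaperone of HSP70 (-2.85). After sham surgery cryabb (5.46) and unc45b (4.18) led the higher and hsbp1a (-3.61) and bag4 (-2.92) the lower genes. Among genes of the response to stress in the endoplasmic reticulum (19 tested of 22), 5 were called higher and 3 lower after cryoinjury and 4 higher and 3 lower after sham surgery. These shares of 42.1% and 36.8% were also near those of all genes. The chaperone gene hyou1 (3.94 and 3.22) and canx (2.32 and 1.95) were higher, and ppp1r15a (-6.14 and -6.13) and atf4b (-3.98 and -3.23), which belong to the arm that slows translation, were lower.

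Few genes of any kind were called between cryoinjury and sham surgery. Of the 79 members 1 was called, and it was higher, against 0.318% of all genes called, with 0.227% called in that direction, and 11 had an unadjusted p under 0.05, while 18.7% of all genes did. The called gene was dnajc24, whose product takes part in making diphthamide on elongation factor 2. It had 62, 53 and 49 counts after cryoinjury (11.3, 10.8 and 9.40 CPM) and 0 in both sham libraries, which puts it at least 15.5-fold higher after cryoinjury (adjusted p = 0.0187). In larval epicardium it was at 25.0, 13.2 and 23.1 CPM and in non-epicardium at 48.6, 43.4 and 46.7 CPM, so the sham libraries alone lacked it. Without cryoinjury replicate 7 or either sham library the count of called members was 2. The dnajc24 call was lost when only the cryoinjury and sham libraries were fitted (adjusted p = 0.178).

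The inducible genes showed no call between the 2 adult groups, where 0.318% of all genes were called. The medians of the mitochondrial class (-0.64, with 0 of 9 values above 0) and of all members (-0.20) stood beside 0.02 for all genes. Among members with an unadjusted p under 0.05, dnajb1b had 16, 5 and 22 counts after cryoinjury and 0 and 1 after sham surgery (at least 4.02-fold higher, adjusted p = 0.0782). Others were hspa8 (-1.11, adjusted p = 0.239), hspa14, an atypical HSP70 of the ribosome (1.44, adjusted p = 0.192), and hspg2 (1.18, adjusted p = 0.214). The share of leukocyte markers ptprc, mpeg1.1 and lcp1 was 0.013% to 0.0321% in cryoinjury libraries and 0.00549% to 0.00836% in sham libraries. With 3 libraries against 2, a p that misses the threshold does not show that the groups were alike.

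In larvae, the epicardium was compared with the rest of the sorted heart cells. Here 12 of 79 members were called, 3 higher and 9 lower in the epicardium, where 13.4% of all genes were called (5.68% higher and 7.77% lower). Median log2 fold changes were -0.34 for members and 0.32 for all genes, and the direction of the split depended on scaling: it was 8 higher and 3 lower with scaling by library total, and 6 and 10 once the abundance trend was taken out. Without non-epicardium replicate B the count was 7, 2 higher and 5 lower. Epicardium library B, with its scaling factor of 1.88, belongs to this comparison. Erythrocyte genes held 2.19% to 2.90% of counts in the non-epicardium and at most 0.00297% in the epicardium, and cardiomyocyte genes were higher there too, as given above. Their part in the members' differences was not tested.

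The gene hspb8 was higher in the epicardium. Its product acts with Bag3 in mammals to send misfolded proteins to autophagy. It was at 114, 60.0 and 98.0 CPM in epicardium and 21.5, 18.1 and 17.9 CPM in non-epicardium, without overlap (log2 fold change 2.24, SE 0.46, adjusted p = 0.00246). The co-chaperone gene bag3 itself, which is not a member, was higher as well (means 287 and 22.7 CPM, log2 fold change 3.66, SE 0.57, adjusted p = 0.000198). In adults hspb8 was at 145, 270.0 and 161 CPM after cryoinjury, not called against larval epicardium (1.08, adjusted p = 0.0609), and at 375 and 338 CPM after sham surgery, called higher (1.97, adjusted p = 0.0061). The other higher members were hspg2, with 7.95, 4.78 and 8.55 CPM in non-epicardium (3.11, SE 0.47, adjusted p = 0.000161), and hspa12a, an atypical HSP70, at 45.0, 14.7 and 85.9 CPM in epicardium and 7.41, 0.382 and 6.68 CPM in non-epicardium (3.33, SE 0.87, adjusted p = 0.014). The hspa12a call was lost without epicardium replicate C (0.0716) or non-epicardium replicate B (0.0542).

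Called lower in the epicardium were 9 members. The ribosomal hspa14 was at 31.9, 20.9 and 19.7 CPM in epicardium and 176, 238 and 107 CPM in non-epicardium (-2.85, SE 0.52, adjusted p = 0.000936). The histone co-chaperone dnajc9 was at 33.0, 2.88 and 38.6 CPM against 195, 174 and 119 CPM (-2.71, SE 0.72, adjusted p = 0.0143), and the epicardium library B, at 2.88 CPM, was far under the other 2. Both genes kept every epicardium library under every non-epicardium one. The remaining called genes were hspb2 (-3.38, adjusted p = 0.00984), hspb11 (-3.20, adjusted p = 0.00161), dnajc21 (-3.001, adjusted p = 0.0203), dnajc11 (-2.80, adjusted p = 0.0187), dnajb2 (-2.27, adjusted p = 0.00574), dnaja2 (-1.62, adjusted p = 0.0268) and dnajc8 (-1.61, adjusted p = 0.0452). Scaling by library total took the calls of hspb2 (0.0544), dnajc21 (0.0787), dnajc11 (0.0519), dnajb2 (0.0513), dnaja2 (0.0598) and dnajc8 (0.0942). Without non-epicardium replicate B the calls of dnajc21 (0.121), dnajc11 (0.0657), dnaja2 (0.0889) and dnajc8 (0.168) were lost, and without epicardium replicate A those of dnajc21 (0.092), dnajc11 (0.0871), dnaja2 (0.0813) and hspb2 (0.0586). Without epicardium replicate B, dnajc11 (0.0633), dnaja2 (0.0556) and dnajc8 (0.101) were not called, without epicardium replicate C dnajc21 (0.0753) and dnajc8 (0.0747), without non-epicardium replicate A dnajc21 (0.0609), dnaja2 (0.0568) and dnajc8 (0.0762), and without non-epicardium replicate C hspb2 (0.0521) and dnajc8 (0.0566).

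**Figure D4:**
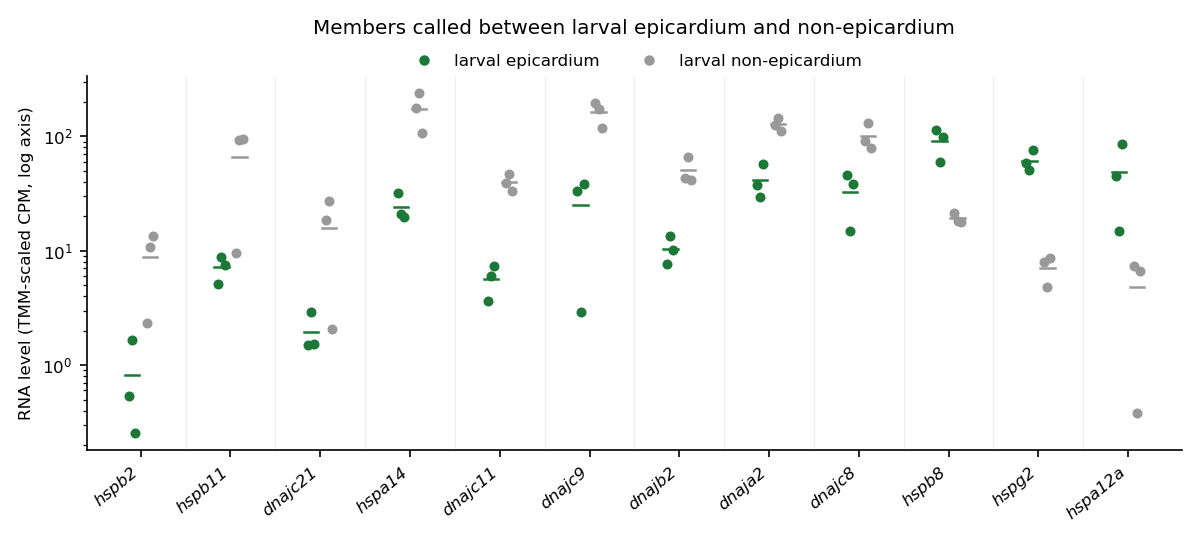
RNA level (TMM-scaled CPM, log axis) of the 12 members called between larval epicardium and larval non-epicardium, where points are libraries and bars are group means. Of the 12 genes, hspb8, hspg2 and hspa12a lie higher in epicardium and the other 9 lower, and dnajc21 overlaps between the groups.

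Between larval epicardium and non-epicardium, 13.4% of all genes were called, 7.77% of them lower in the epicardium as a share of all genes. Of the 12 inducible genes, hspb11 was called lower and the other 11 were not called. Their log2 fold changes were above 0 for 7 of the 12, with a median of 0.24 beside 0.32 for all genes. Mean levels in epicardium and non-epicardium were 322 and 139 CPM for hsp70.1 and 592 and 233 CPM for hsp70.2, and the libraries of the groups overlapped for both. The non-epicardium levels of hsp70.3 were 394, 1234 and 274 CPM and those of dnajb1b 311, 1061 and 374 CPM, ranges that overlap those of the epicardium, with log2 fold changes of 0.62 (SE 0.72, adjusted p = 0.603) and 0.33 (SE 0.56, adjusted p = 0.723). Of the rest, hsp70l was higher in every non-epicardium library, at 254, 551 and 135 CPM (-1.72, SE 0.62, adjusted p = 0.0735), and hspb1 lower, at 303, 790.0 and 1220.0 CPM (1.24, SE 0.49, adjusted p = 0.1), without either being called. In CPM the same library was often the highest of its group. In the epicardium replicate C was highest for 9 of the 12 genes, and in the non-epicardium replicate B was highest for 9 of the 12. The order in the epicardium depended on scaling. As a share of all counts, the 12 genes together held 0.891% in epicardium replicate B and 0.723% in replicate C. The immediate-early genes were called higher in the epicardium for 7 of 14, where 5.68% of all genes were called higher. The difference between these genes and the inducible chaperones was not tested.

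Chromatin was examined at the same genes. The only genome build that the submitters' processing notes name is GRCz10, and coordinates are given as in the deposited peak table. Between adult and tcf21 larval epicardium, 21 of the 158 member peaks were called after cryoinjury, 7 higher and 14 lower, where 14% of all peaks were called (3.98% higher and 10.1% lower), and 5 after sham surgery, 2 higher and 3 lower, where 7.64% were (2.34% higher and 5.3% lower). The direction of the split depended on scaling: by library total it was 16 higher and 5 lower after cryoinjury and 5 and 3 after sham surgery, with the abundance trend removed 11 and 10, and 4 and 3, and with DESeq2's size factors 1 and 4 after sham surgery. At promoters, 6 of 64 member peaks were called after cryoinjury (10.4% of all promoter peaks were) and 2 after sham surgery (5.49%), and their median log2 fold changes of 0.46 and 0.55 stood beside 0.32 and 0.41 for all promoter peaks. The cryoinjury count rested on single libraries: without tcf21 larval epicardium replicate 1 it was 9, without replicate 2 it was 5, without cryoinjury replicate 3 it was 11 and without replicate 4 it was 13. The sham count was 2 without sham replicate 1 and 3 without sham replicate 2 or larval epicardium replicate 2.

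The promoters of the inducible genes that were lower in adult RNA were open in adults. A promoter peak was present at 8 of the 12 inducible genes. At hsp70.1 (chr3:25984505-25985005) accessibility was 40.3 and 49.6 CPM in tcf21 larval epicardium, 19.4, 40.6, 37.4 and 28.6 CPM after cryoinjury and 34.1 and 41.3 CPM after sham surgery. For dnajb1b (chr1:55072227-55072727) it was 41.4 and 34.5 CPM in larvae, 36.2, 48.4, 54.8 and 25.5 CPM after cryoinjury and 69.3 and 60.2 CPM after sham surgery. The larval and cryoinjury libraries overlapped at both, and neither was called (log2 fold change -0.48, SE 0.35, adjusted p = 0.376, and 0.11, SE 0.38, adjusted p = 0.877). The same held for hsp70.2 (chr3:25991307-25991807, 0.48, SE 0.40, adjusted p = 0.454) and hsp70l (chr8:4741566-4742066, 0.45, SE 0.37, adjusted p = 0.437). The promoter of hsp90aa1.2 was not called either (chr20:54191895-54192395, 0.54, SE 0.40, adjusted p = 0.393). None of the 5 was called after sham surgery (-0.25 to 1.0, adjusted p = 0.159 to 0.746), although both sham libraries were above both larval ones at dnajb1b, hsp70.2 and hsp90aa1.2. The RNA of the same 5 genes had log2 fold changes of -8.67, -8.06, -7.59, -3.57 and -2.23 after cryoinjury. Adult RNA came from a nuclear pulldown, while the adult ATAC cells, like the larval ones, were sorted by FACS. The RNA comparison includes a change of preparation that the ATAC comparison does not, and its part in the RNA differences was not tested. No promoter peak was annotated to hsp70.3 or hsp90aa1.1, and no peak to hspb11.

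Over all members the same comparison of RNA and promoter was made, and in adults against larvae the assays again differed in preparation. Of the 13 members with lower RNA after cryoinjury, 10 had promoter peaks, 11 in all, of which 1 was called higher and none lower (median log2 fold change 0.11). Of the 21 with higher RNA, 12 had 13 promoter peaks, of which none was called in either direction (median 0.53). After sham surgery, 12 promoter peaks of 11 members with lower RNA had no call, with a median of 0.71, and of 16 promoter peaks of 15 members with higher RNA 1 was called higher. These medians stand beside 0.32 and 0.41 for all promoter peaks. Between tcf21 larval epicardium and non-epicardium, both assays used cells sorted by FACS. There 6 of the 9 members with lower RNA had 6 promoter peaks, of which 3 were called lower (median -1.41). The 3 members with higher RNA had 4 promoter peaks, none called (median 0.56). The median was -0.52 for members not called in RNA and -0.50 for all promoter peaks, of which 10.1% were called lower.

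Outside promoters, 22 peaks were annotated to the inducible genes. After cryoinjury 6 of them were called lower than in larval epicardium, none higher, and 16 were not called, where 11.4% of all peaks outside promoters were called lower and 3.62% higher. After sham surgery none of the 22 was called, where 6.19% were lower and 2.0% higher. The peaks described next were singled out after their values had been seen. At the transcription end of hsp70.3 (chr3:25996660-25997160) accessibility was 149 and 88.6 CPM in tcf21 larval epicardium, 41.5, 40.1, 30.4 and 35.0 CPM after cryoinjury and 48.1 and 63.1 CPM after sham surgery, with all adult libraries lower. The log2 fold change was -1.71 (SE 0.37, adjusted p = 0.00118) after cryoinjury and -1.11 (SE 0.44, adjusted p = 0.114) after sham surgery, and the first was lost without larval epicardium replicate 1 (-1.32, adjusted p = 0.0794). Lower too after cryoinjury were exon peaks of hsp70.1 (chr3:25982073-25982573, -1.04, adjusted p = 0.0318), hsp70.2 (chr3:25988897-25989397, -1.10, adjusted p = 0.0241) and dnajb1b (chr1:55065452-55065952, -1.27, adjusted p = 0.0286), and an intron peak of dnajb1b (chr1:55066133-55066633, -1.38, adjusted p = 0.0378). Each of these 4 calls was lost under scaling by library total (adjusted p = 0.0881 to 0.116) and without 1 or more of the larval epicardium and cryoinjury libraries, and none was called after sham surgery. Without replicate 1 the dnajb1b exon and intron peaks had adjusted p = 0.177 and 0.469, and without replicate 2 the hsp70.1 and hsp70.2 peaks had 0.262 and 0.219.

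**Figure D5:**
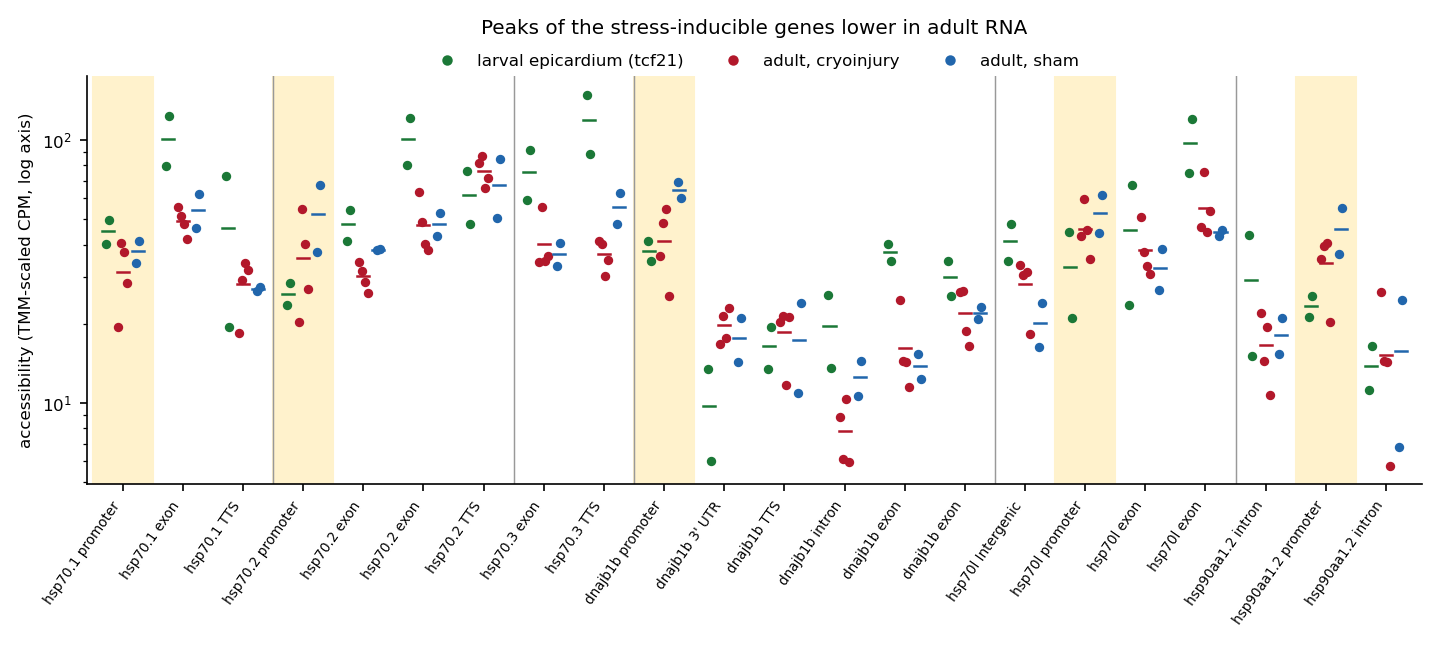
Accessibility (TMM-scaled CPM, log axis) of the 22 peaks annotated to the 6 inducible genes with lower RNA in adults, in tcf21 larval epicardium, cryoinjured and sham adults, where points are libraries, bars are group means and shaded columns are promoter peaks. The larval and cryoinjury libraries overlap at the promoters of hsp70.1, hsp70.2, dnajb1b and hsp70l. The peak at the transcription end (TTS) of hsp70.3 lies at 88.6 to 149 CPM in larvae and at 30.4 to 63.1 CPM in adults.

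The clearest promoter difference among the members was at hspb7, whose RNA was not called. Its promoter peak (chr23:24336952-24337452) was at 58.2 and 107 CPM in tcf21 larval epicardium, 19.95 and 11.7 CPM in tcf21 non-epicardium, 103 and 104 CPM in tbx18 epicardium and 25.4 and 30.0 CPM in tbx18 non-epicardium. In adults it was at 20.3, 11.3, 13.4 and 14.4 CPM after cryoinjury and 12.3 and 9.42 CPM after sham surgery. Every larval epicardium library was thus above every other library. The log2 fold change was -2.49 (SE 0.35, adjusted p = 1.22e-06) after cryoinjury, -2.88 (SE 0.44, adjusted p = 3.28e-05) after sham surgery, 2.30 (SE 0.44, adjusted p = 0.000238) for tcf21 epicardium against non-epicardium and 1.91 (SE 0.39, adjusted p = 0.000243) for tbx18, and these calls held under each alternative run. An intron peak of the gene (chr23:24335273-24335773) was lower in adults as well, by 2.38 on the log2 scale after cryoinjury and by 3.67 after sham surgery, where the first was lost without larval epicardium replicate 2 (adjusted p = 0.0901) and the second without sham replicate 1 (0.0941).

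A few peaks were called higher in adults. Of the alternative fits, 8 of 11 lost the sham call at the dnajc8 promoter, and 7 of 13 lost the cryoinjury call at the second hspb1 promoter. The promoter of dnajc8 (chr19:72039-72539) was at 2.24 and 1.502 CPM in tcf21 larval epicardium, 13.2, 12.6, 15.4 and 14.2 CPM after cryoinjury and 9.89 and 13.04 CPM after sham surgery. Both larval libraries lay at or under 3 counts, so the difference is at least 3.53-fold after cryoinjury (adjusted p = 0.00754) and at least 2.92-fold after sham surgery (adjusted p = 0.0457). In the tcf21 non-epicardium the same peak was at 19.5 and 9.33 CPM, which is at least 3.66-fold above the epicardium (adjusted p = 0.00983). These calls were lost without larval epicardium replicate 1 (adjusted p = 0.0744, 0.175 and 0.0781) or 2 (0.0979, 0.215 and 0.0958), the sham call without either sham library (0.0923 and 0.135) and the last without non-epicardium replicate 1 (0.213). A peak at the transcription end of hspb6 (chr15:37660445-37660945) was higher by at least 3.9-fold and 4.07-fold (adjusted p = 0.0183 and 0.0362), lost without larval epicardium replicate 1 (0.271 and 0.319) or 2 (0.0526 and 0.0761), and also without cryoinjury replicate 2 (0.0521) and sham replicate 1 (0.277). The dnajb12a promoter (chr13:29904734-29905234) had 1.97 (adjusted p = 0.0227) and the second hspb1 promoter (chr5:3254845-3255345) 1.76 (adjusted p = 0.0393) after cryoinjury, and neither was called without larval epicardium replicate 1 (0.244 and 0.0698) or 2 (0.0866 and 0.343). Lower peaks by the same rule of naming were one between genes near dnajb6b (chr7:40309816-40310316, -2.77, adjusted p = 0.00917, after cryoinjury) and one in an intron of dnajc17 (chr17:962803-963303, -2.39, adjusted p = 0.0154, after sham surgery), which were lost without larval epicardium replicate 2 (0.178 and 0.0769), the second also without sham replicate 2 (0.113).

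Between larval epicardium and non-epicardium, 21 member peaks were called with the tcf21 reporter, 7 higher and 14 lower, and 35 with the tbx18 reporter, 19 higher and 16 lower. Over all peaks 13.2% (6.69% higher and 6.55% lower) and 26.9% (13.8% and 13.1%) were called. The tcf21 split was 10 higher and 9 lower with DESeq2's size factors and 11 and 10 with the abundance trend removed. The tcf21 count was 13 without epicardium replicate 1, 11 without epicardium replicate 2 and 8 without non-epicardium replicate 1, and the tbx18 count was 17 and 23 without epicardium replicate 1 or 2 and 19 without non-epicardium replicate 1. At promoters, 1 of 64 member peaks was called higher and 9 lower with tcf21, where 12.7% of all promoter peaks were called (2.53% higher and 10.1% lower). With tbx18 the counts were 2 and 2, where 10.2% were called (3.57% higher and 6.62% lower). The median tcf21 log2 fold change was -0.68 for member promoters and -0.50 for all promoter peaks, so both leaned lower.

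An intron peak of hspb8 was open in the epicardium with both reporters. The peak (chr5:15335174-15335674) was at 14.5 and 24.0 CPM in tcf21 epicardium and 1.99 and 2.33 CPM in tcf21 non-epicardium, and at 19.3 and 27.7 CPM against 2.16 and 2.63 CPM with tbx18. The log2 fold change was 3.14 (SE 0.67, adjusted p = 0.00108) and 3.29 (SE 0.53, adjusted p = 9.39e-06), and the difference between reporters was not called (-0.16, adjusted p = 0.956). Adult libraries were at 22.05, 16.6, 22.04 and 15.4 CPM after cryoinjury and 39.9 and 31.9 CPM after sham surgery, as high as the larval epicardium. The RNA of hspb8 was higher in the epicardium as well (2.24).

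Other epicardial peaks lay at hspb1 and dnaja1. A peak between genes near hspb1 (chr5:3216769-3217269) was at 17.9 and 34.5 CPM in tcf21 epicardium, 0.499 and 11.7 CPM in tcf21 non-epicardium, 26.8 and 26.7 CPM in tbx18 epicardium and 0.719 and 1.58 CPM in tbx18 non-epicardium. Epicardium was above non-epicardium in each set (2.45, adjusted p = 0.0188, lost without tcf21 epicardium replicate 2 at 0.159 and without non-epicardium replicate 1 at 0.399, and 4.69, adjusted p = 6.68e-06). Adults were lower than larval epicardium after cryoinjury, at 7.06, 7.41, 7.35 and 7.61 CPM (-1.80, adjusted p = 0.0188, lost without larval epicardium replicate 2 at 0.272). An exon peak of dnaja1 (chr1:44318265-44318765) was higher in tcf21 epicardium (2.60, adjusted p = 0.000225) and in tbx18 epicardium (3.29, adjusted p = 1.35e-06). A distal peak near dnaja3b (chr22:25867508-25868008) was higher with tbx18 (3.503, adjusted p = 2.22e-05) and not called with tcf21 (1.34, adjusted p = 0.158), and the difference between reporters was not called (adjusted p = 0.196). An intron peak of hspbap1 (chr9:37547084-37547584) was higher with tbx18 (3.203, adjusted p = 0.000697) and at least 4.96-fold higher with tcf21 (adjusted p = 0.0176), the latter lost without tcf21 epicardium replicate 2 (0.675) or either non-epicardium library (0.2 and 0.0525).

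Peaks lower in the epicardium included promoters of inducible genes, where 10.1% of all promoter peaks were called lower with tcf21. With tcf21, the hsp70.2 promoter was at 23.5 and 28.5 CPM in epicardium and 79.8 and 68.8 CPM in non-epicardium (-1.53, SE 0.45, adjusted p = 0.0169), that of hsp70l at 44.7 and 21.0 against 90.8 and 70.0 CPM (-1.27, SE 0.41, adjusted p = 0.0333) and that of hsp90aa1.2 at 21.3 and 25.5 against 69.3 and 42.0 CPM (-1.28, SE 0.45, adjusted p = 0.0479). The groups did not overlap at any of the 3. With tbx18 none was called (-0.32, adjusted p = 0.575, -0.63, adjusted p = 0.206, and -0.16, adjusted p = 0.788), and the difference between reporters was not called for any of them (adjusted p = 0.296 to 0.6). The tcf21 calls of all 3 were lost without non-epicardium replicate 1 (0.13, 0.244 and 0.425) and without epicardium replicate 2 (0.0891, 0.372 and 0.158), and those of hsp70.2 and hsp90aa1.2 without epicardium replicate 1 (0.164 and 0.269). An intron peak of dnaja2 (chr7:41690350-41690850) was at least 5.29-fold lower in tcf21 epicardium (adjusted p = 0.00589) and at least 12.5-fold lower in tbx18 epicardium (adjusted p = 1.39e-05), and one of dnajb2 (chr9:7673894-7674394) lower by 2.90 (adjusted p = 0.001) and 3.73 (adjusted p = 7.73e-06) on the log2 scale, genes whose RNA was also lower in the epicardium. The tcf21 calls of these 2 peaks were lost without non-epicardium replicate 1 (0.0612 and 0.0783), and also without epicardium replicate 1 for dnaja2 (0.123) and replicate 2 for dnajb2 (0.0544). With tbx18, an intergenic peak of hspb9 (chr3:33161847-33162347) was at least 5.12-fold lower (adjusted p = 0.00231), lost without tbx18 epicardium replicate 1 (0.0869).

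The effect of the epicardium differed between reporters at 1 member peak of 158, where 1.51% of all peaks did. This was the intron peak of dnajb11, an endoplasmic reticulum DnaJ (chr9:32834716-32835216). It was at 2.24 and 6.01 CPM in tcf21 epicardium and 1.995 and 5.83 CPM in tcf21 non-epicardium, which overlap, and at 0.201 and 0.513 CPM in tbx18 epicardium against 12.2 and 11.6 CPM in tbx18 non-epicardium. The tcf21 effect was 0.18 (SE 0.94, adjusted p = 0.925), the tbx18 effect at least 11.1-fold lower (adjusted p = 4.81e-05), and the difference between these effects was called (adjusted p = 0.039). Both tbx18 epicardium libraries lay under 3 counts, so no size is given for it. Its call was lost in 6 of the 8 fits that left out 1 library.

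Between cryoinjured and sham adults none of the 158 member peaks was called by edgeR, where 0.00162% of all peaks were. By DESeq2's Wald test the count was 0 too, and 5 of the 158 had an unadjusted p under 0.05, against 6.69% of all peaks. The promoter of hsp70.2, for example, was at 20.3, 54.5, 40.4 and 27.2 CPM after cryoinjury and 37.5 and 67.4 CPM after sham surgery (-0.52, SE 0.34, adjusted p = 0.83).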

How the data were processed

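RNA was measured in 11 and accessible DNA in 14 libraries, grouped by stage, treatment, reporter and sorted population as the labels give them. The authors deposited counts per gene and per peak, and both tables hold whole numbers. The lowest deposited peak count is 1 in all 14 ATAC libraries. The authors also deposited FPKM values per peak, which were not tested, and GC and CpG fractions and distances to the nearest start site per peak. Per the submitters' processing notes, which give no roles or order, the tools were Bowtie 1.2.3, SAMtools 1.10, MACS2 2.2.7.1, HOMER, DiffBind 3.0.13, STAR 2.7.3a, featureCounts and edgeR 3.32.1, and the build was GRCz10. Per the labels' protocols, RNA libraries were made with SMART-Seq v4 and Nextera XT, which do not mark strand, so reads of a gene and of an antisense partner cannot be told apart.

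From these counts, edgeR 4.0.16 (R 4.3.3) was run with TMM scaling, the filterByExpr filter (minimum count 10, minimum total 15) and the two-sided quasi-likelihood test, with each assay fitted whole and p-values adjusted by Benjamini-Hochberg over all 20745 genes or 61883 peaks. Each SE is the absolute log2 fold change over the root of its F statistic. Where all libraries of a group held at most 3 counts, the fold is a bound against 3 counts per library, which covers counting error only. Alternatives were DESeq2 1.42.0, other scalings, no filter, the compared groups alone, a replicate block and leaving out each library. The members and lists were chosen with earlier results of these data known. Text names all inducible genes, the most abundant members, the largest called changes of each comparison and the 2 most abundant members of each role. Other called members, and hsf1 among the listed genes, are named outside this rule, after their values were seen. Counts of replicate libraries differed more than counting error allows, with ratios of chi-square to its degrees of freedom of 22.2 to 67.2 (RNA) and 3.03 to 4.63 (ATAC).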

Additional observations from a re-analysis of the deposited data

Results flagged for a closer look

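In the cryoinjured adults, 4 peaks had a library far from the other 3, with a gap to the nearest library so large against the group's range that it passed Dixon's 95% limit for 4 samples. Chance alone gives such a gap in a small share of all groups tested. At the transcription end peak of dnajb1b, replicate 3 was low at 11.7 CPM. At an exon peak of hsp70.3, replicate 2 was high at 55.4 CPM. At the promoter of dnajb1a, replicate 1 was high at 58.2 CPM. At the intron peak of hspbap1, replicate 4 was high at 14.6 CPM. The 4 peaks involve 4 different libraries. The effect of the larval epicardium on the dnajb11 intron peak differed between the tcf21 and tbx18 reporters (edgeR, adjusted p = 0.039). The fitted difference of 5.28 on the log2 scale depends on the prior count and is no measured size, since both tbx18 epicardium libraries lay under 3 counts there.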

How the results depend on the processing

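Single genes and peaks called in the edgeR fit described above were followed under the alternatives. Of these values, 1237 kept the call, 253 lost it and none turned direction. Calls gained under an alternative are not part of this tally. Counts of called members moved by over 1.5 times in these cases. For RNA of cryoinjury against sham, 1 member became 4 with DESeq2's Wald test, 4 without a filter, 2 with library totals and 0 with the compared groups alone, and 1 to 2 when a library was left out. For RNA of larval epicardium against non-epicardium, 12 became 21 with DESeq2's Wald test and 21 with the compared groups alone, and 7 to 13 when a library was left out. Leaving out a library gave 22 to 33 in place of 36 for sham against larval RNA. For peaks, sham against larval epicardium gave 3 with the compared groups alone and 8 with library totals in place of 5, and the reporter difference gave 0 with DESeq2's Wald test and 0 with the compared groups alone in place of 1. Leaving out a library gave 5 to 21 peaks in place of 21 for cryoinjury against larval epicardium, 2 to 4 in place of 5 for sham, 0 to 1 for the reporter difference, 17 to 24 in place of 35 for tbx18 and 8 to 25 in place of 21 for tcf21. The causes were not tested. Deviations of same-numbered libraries correlated by -0.211 to 0.121, and the labels do not say that a number marks a shared source, so the numbers were not treated as pairs. With the replicate block the peak counts were 4 for cryoinjury and 3 for sham against larval epicardium, 0 for the reporter difference, 19 for tcf21 and 31 for tbx18, and the RNA count of the larval comparison was 12. The block took the larval RNA calls of dnajc8 (adjusted p = 0.0677) and dnajc21 (0.0737). It took the cryoinjury calls of the hsp70.1 and hsp70.2 exon peaks (0.172 and 0.199), the dnajb1b exon and intron peaks (0.243 and 0.132) and the hspb1 intergenic peak (0.114), and kept that of the hsp70.3 transcription end. The tcf21 larval epicardium ATAC libraries, with under 1000000 counts each, limit the precision at weak peaks.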
